A study of Mus musculus with 4 samples.

Results

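Genes of fatty acid oxidation, of the acyl-CoA thioesterases and of the peroxisome were followed in lung cells lacking the leukocyte marker CD45 after bleomycin, a DNA-damaging drug that causes lung fibrosis in mice. The genes were chosen by symbol: acyl-CoA dehydrogenases (Acad), thioesterases (Acot), acyl-CoA oxidases (Acox), carnitine acyltransferases (Cpt, Crat, Crot), the carnitine carrier Slc25a20, acyl-CoA synthetases (Acsl), the later enzymes of the spiral (Hadh, Ech1, Echs1, Eci, Decr) and the peroxins (Pex). This gave 60 genes of the 30142 tested, each read from 1 row of the array. The control group, PBS, held 2 samples from C57BL/6 mice given saline into the trachea, and the treated group, BLM, held 2 samples from mice of that strain given bleomycin by the same route. All 4 were total RNA of CD45-negative lung cells taken on day 10 and hybridised to Affymetrix arrays, and the labels give no age. The labels do not state whether the pair of samples in a group came from different animals, so each p-value rests on the spread within pairs that may be technical repeats.

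Fatty acids are burned after they are joined to coenzyme A. Carnitine acyltransferases carry the long chains into mitochondria, where dehydrogenases, hydratases and thiolases remove acetyl units in turn, while peroxisomes shorten chains that mitochondria handle poorly. Thioesterases undo the coupling to coenzyme A, and peroxins build and divide peroxisomes and import their enzymes. In the lung, alveolar type 2 cells hold many of these organelles and make surfactant lipid from fatty acids.

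Several checks of the samples bear on the values. The arrays had like distributions, with medians of 5.44 to 5.49 over all clusters, and arrays of a pair differed over genes by a mean absolute 0.157 log2 units in PBS and 0.134 in BLM. Xist, an RNA made in female cells, was at 15.86 and 15.61 in PBS and at 5.60 and 5.43 in BLM, while Kdm5d, Uty and Eif2s3y of the Y chromosome were 2.14, 2.44 and 2.63 log2 units higher in BLM. Treatment and this sex-linked difference cannot be told apart, in autosomal genes as well as in those of the X chromosome. Ptprc, the gene of CD45, was at 6.30 and 6.21 in PBS and at 7.19 and 7.20 in BLM, against an all-gene median of 6.03. Markers of alveolar type 2 cells fell in 10 of 11 cases, their mean level going from 15.98 and 15.95 to 15.09 and 14.996. Ciliated markers fell in 9 of 9 cases (10.74 and 10.82 to 8.65 and 8.79) and club cell markers in 7 of 8 (14.002 and 14.06 to 13.09 and 13.04). Activated fibroblast markers rose in 9 of 9 cases (9.26 and 9.26 to 12.79 and 12.74), and macrophage markers rose in 9 of 12 and fell in 1 (7.58 and 7.59 to 9.19 and 9.24). By the test used below, 15.2% of all genes rose and 10.1% fell. The part of these marker shifts in the results that follow was not tested.

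Fatty acid oxidation genes moved in both directions. Of the 60 genes, 18 passed the test (limma, Benjamini-Hochberg adjusted p under 0.05 over all genes), which is 30% where the share over all genes was 25.3%. The thioesterase Acot1, the oxidases Acoxl and Acox2, the peroxisome division factor Pex11a and the synthetase Acsl4 were among the 10 that fell, 16.7% against 10.1% of all genes. The carnitine acyltransferases Cpt1c and Cpt2, the thioesterase Acot9 and the beta subunit of the trifunctional protein, Hadhb, were among the 8 that rose, 13.3% against 15.2% of all genes. The other 42 did not pass, and for 36 of those the 95% interval of the difference lay within 0.5 log2 units of 0 on either side. In a bulk sample, fewer cells of a type and less RNA per cell cannot be told apart.

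The median difference over the list lay near 0, while a larger share of the members fell than of all genes. The members were also brighter, with a median PBS level of 8.17 against 6.01 over all genes, which these shares do not allow for. In a fit of only the genes with a mean level at or above the all-gene median, 13 of 51 members rose and 14 fell. Over all 15071 genes of that fit, 4743 rose and 3307 fell. The median difference, BLM minus PBS, was -0.02 log2 units over the members and 0.05 over all genes, and with cyclic loess scaling these became -0.08 and -0.00. That scaling also moved the split of calls, from 8 higher and 10 lower to 7 higher and 14 lower among the members, and the share of calls that were higher over all genes from 60.1% to 49.6%. In 21 members, or 35.0%, both BLM arrays lay above both PBS arrays (38.0% of all genes did so). In 24 members, or 40.0%, both lay below (25.3% of all genes). The groups overlapped in 15 members, and 63.3% of all genes had no overlap. A difference of at least 1 log2 unit was called in 5 members, with Cpt1c higher and Acot1, Acoxl, Pex11a and Acsl4 lower. Over all genes 2.81% reached that size upward and 2.33% downward.

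**Figure D1:**
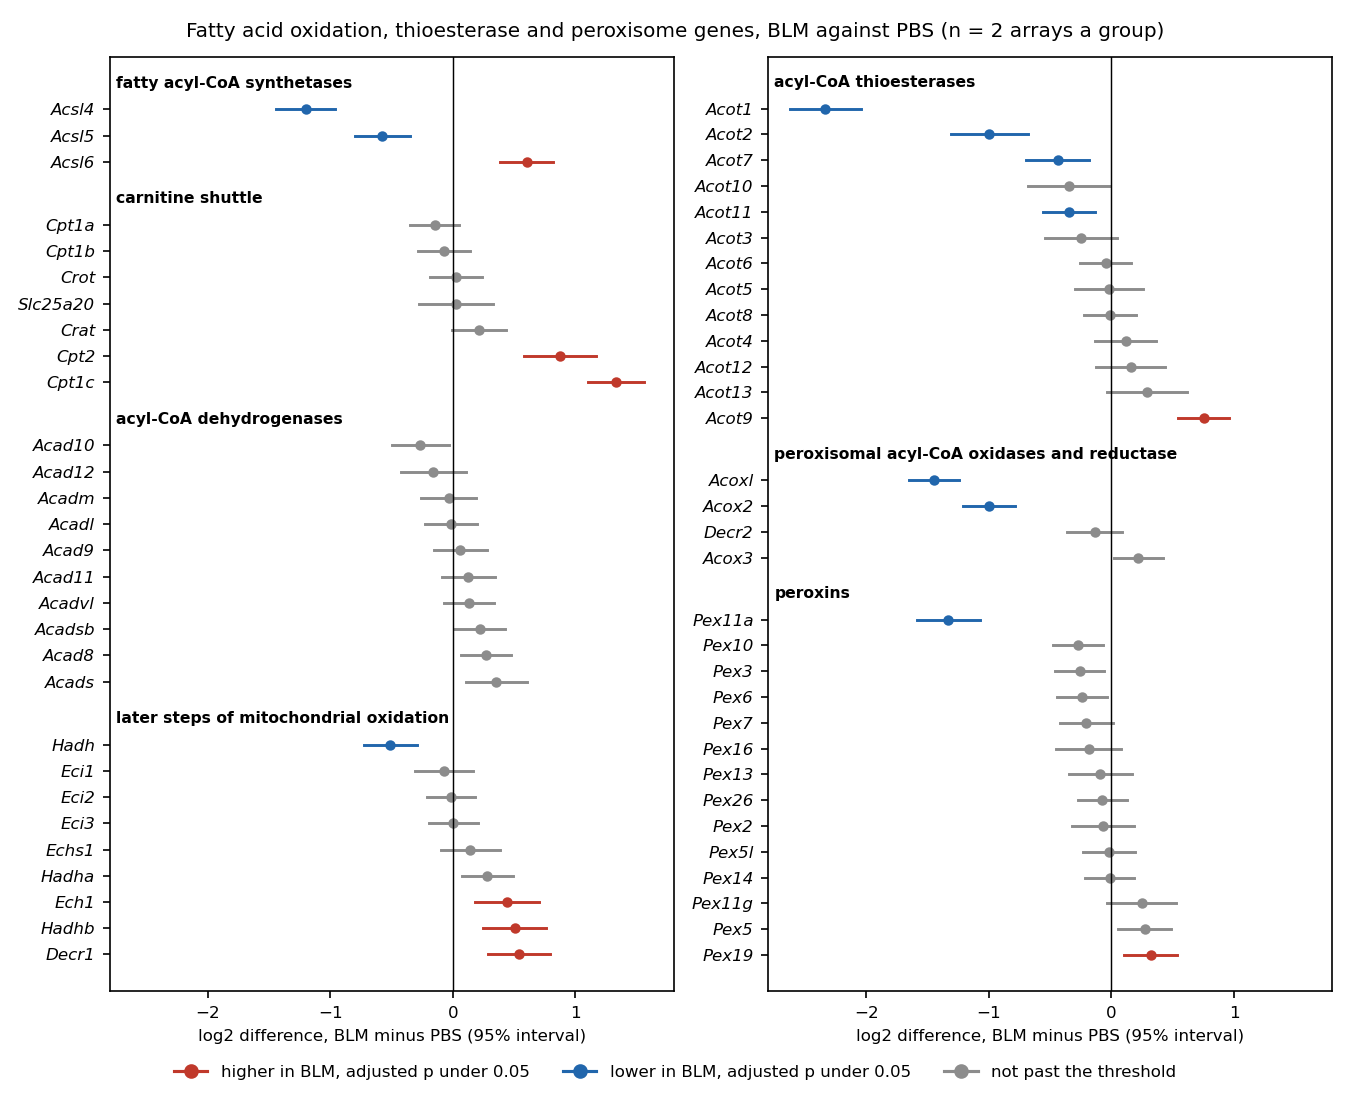
Log2 difference between BLM and PBS (horizontal axis) for each of the 60 genes, grouped by role, with the 95% interval as a bar and n = 2 arrays a group. The 8 genes that rose and the 10 that fell are coloured, Acot1 lies farthest left at -2.33 and Cpt1c farthest right at 1.33.

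How many members passed depended on single arrays. Without PBS replicate 1, 4 members were higher and 9 lower, and without PBS replicate 2, 7 and 9. Without BLM replicate 1 the counts were 5 and 7, and without BLM replicate 2 they were 4 and 6. Over all genes the calls fell from 7629 to between 4003 and 5956. In all, 10 of the 18 called members kept call and direction in every fit that held them, namely Acot9, Cpt2, Cpt1c and Acsl6 among those that rose and Acot1, Acot2, Acsl4, Pex11a, Acoxl and Acox2 among those that fell. The calls of Acot7, Acot11, Acsl5, Hadh, Ech1, Hadhb, Decr1 and Pex19 each depended on at least 1 array, and their values without it are given with each gene.

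**Figure D2:**
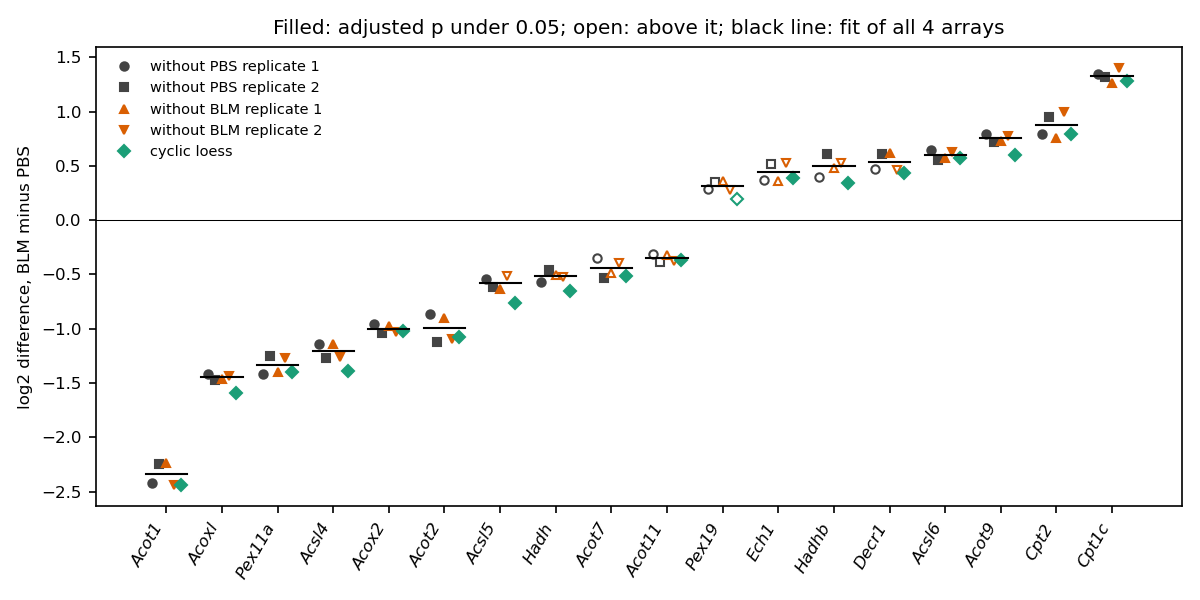
Log2 difference between BLM and PBS (vertical axis) for the 18 called genes when each array in turn was left out, with filled symbols for an adjusted p under 0.05 and open symbols above it. Symbols stay filled for the 10 genes named as keeping their call, and the sign of the difference does not change for any of the 18.

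Promoter windows of 5 genes are printed here, those of Acot1, Pex11a and Cpt1c, which are among the genes that differed by over 1 log2 unit, and of Acot2 and Cpt1a, relatives of Acot1 and Cpt1c that differed less. Those of Acoxl and Acsl4, which also fell by over 1 log2 unit, are not printed. Each is 250 bases that end just before the start of transcription in RefSeq's table for build GRCm38.p6, written 5′ to 3′ on the strand of the gene. The windows are chr12:84009252-84009501 on the plus strand for Acot1, chr12:83987611-83987860 on the plus strand for Acot2, chr7:79743132-79743381 on the minus strand for Pex11a, chr7:44974852-44975101 on the minus strand for Cpt1c and chr19:3323051-3323300 on the plus strand for Cpt1a. Capitals mark 3 motifs on either strand, which are AGGTCA (the core read by nuclear receptors such as PPARs), GGGCGG (the GC box read by Sp factors) and CCAAT (read by NF-Y).
Acot1: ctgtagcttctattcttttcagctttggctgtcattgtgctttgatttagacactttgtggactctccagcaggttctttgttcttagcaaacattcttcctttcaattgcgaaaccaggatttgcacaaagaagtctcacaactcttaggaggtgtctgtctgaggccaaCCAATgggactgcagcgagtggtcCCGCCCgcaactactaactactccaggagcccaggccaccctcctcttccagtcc
Acot2: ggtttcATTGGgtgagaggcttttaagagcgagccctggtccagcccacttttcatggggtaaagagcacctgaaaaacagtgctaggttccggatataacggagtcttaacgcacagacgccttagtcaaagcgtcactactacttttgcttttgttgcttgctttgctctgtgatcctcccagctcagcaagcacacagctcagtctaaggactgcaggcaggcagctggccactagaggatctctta
Pex11a: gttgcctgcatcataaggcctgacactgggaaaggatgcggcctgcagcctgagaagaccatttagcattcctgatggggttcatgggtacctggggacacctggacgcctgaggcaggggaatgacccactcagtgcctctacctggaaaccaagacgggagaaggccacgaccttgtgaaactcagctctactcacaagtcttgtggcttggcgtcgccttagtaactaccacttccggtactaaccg
Cpt1c: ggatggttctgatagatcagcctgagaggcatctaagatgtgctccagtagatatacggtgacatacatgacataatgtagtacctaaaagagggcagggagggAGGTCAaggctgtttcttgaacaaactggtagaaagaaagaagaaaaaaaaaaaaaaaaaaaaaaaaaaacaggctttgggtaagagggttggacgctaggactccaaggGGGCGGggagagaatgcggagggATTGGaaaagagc
Cpt1a: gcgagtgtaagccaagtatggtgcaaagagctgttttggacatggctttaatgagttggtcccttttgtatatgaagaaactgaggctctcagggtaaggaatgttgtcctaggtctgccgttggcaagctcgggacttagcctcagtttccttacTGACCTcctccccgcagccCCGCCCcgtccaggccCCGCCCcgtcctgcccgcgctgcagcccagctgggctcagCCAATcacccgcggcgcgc
The Acot1 window holds a CCAAT motif 79 bases and a GC box 55 bases before the start, and the Acot2 window holds a CCAAT motif on the other strand 244 bases before it. None of the 3 motifs is in the Pex11a window. The Cpt1c window holds AGGTCA 146 bases, a GC box 36 bases and CCAAT on the other strand 13 bases before the start. Its relative Cpt1a has AGGTCA on the other strand 94 bases before the start, GC boxes at 75 and 59 bases and CCAAT at 19 bases.

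Over all 51 members with a promoter in the table, AGGTCA was found in 10, namely Acadm, Acadvl, Acot12, Acot4, Acot5, Acsl6, Cpt1a, Cpt1c, Echs1 and Pex11g. It is in 14.0% of the 32851 promoters of the same length, which belong to 27025 genes. Members are counted by gene, with a match in any promoter of the gene, while the shares of all are by promoter. These units differ, for every motif given here. Among members with a promoter, AGGTCA was in 2 of the 6 that rose, 0 of the 10 that fell and 8 of the 35 that did not pass. The longer motif AGGTCANAGGTCA, which contains the core and is the direct repeat bound by PPAR with its partner RXR, was in 0 members and in 0.0335% of all promoters. TCAAGGTCA, which also contains the core and is read by the estrogen-related receptors, was in the Acsl6 promoter alone among members and in 0.387% of all. The GC box was in 35 of the 51 (32.7% of all promoters). It was in 6 of the 6 that rose, 5 of the 10 that fell and 24 of the 35 that did not pass. CCAAT was in 22 of the 51 (33.8% of all). That motif was in 3 of the 6 that rose, 7 of the 10 that fell and 12 of the 35 others. The remaining motifs were CACGTG, the E-box, in Acot11 and Acot4 (6.02% of all promoters), and TATAAA, the TATA box, in 6 members (12.4%). A match is a description of letters in this window, and no match says nothing of sequence outside it.

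Activation came first in the order of roles. Acyl-CoA synthetases join a long-chain fatty acid to coenzyme A, and of the 3 measured, 2 fell and 1 rose. Those shares, 66.7% and 33.3%, stood against 10.1% and 15.2% of all genes. Acsl4, which favours arachidonic acid and so feeds polyunsaturated chains into membrane lipid, was at 13.85 and 13.72 in PBS and at 12.53 and 12.64 in BLM. The BLM arrays lay below the PBS arrays, and Acsl4 fell by 1.20 log2 units (SE 0.09, 95% interval -1.44 to -0.96, adjusted p 0.00122), a 2.30-fold difference. Acsl4 lies on the X chromosome. As in every gene here, treatment and the sex-linked difference between the groups cannot be told apart. Acsl5, a synthetase of the outer mitochondrial membrane and endoplasmic reticulum, was at 13.82 and 13.75 in PBS and at 13.27 and 13.15 in BLM. It fell by 0.58 (SE 0.09, adjusted p 0.00907), without overlap, but missed the threshold without BLM replicate 2 (adjusted p 0.0576). Acsl6, known best from brain, was at 5.22 and 5.12 in PBS and at 5.80 and 5.75 in BLM, below the all-gene median on every array. It rose by 0.60 (SE 0.09, adjusted p 0.00675) with no overlap. Acsl1 and Acsl3 were not analysed here as genes of their own.

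Entry into mitochondria showed a contrast between isoforms. Of 7 genes of the carnitine shuttle, 2 rose (28.6%, against 15.2% of all genes) and 5 did not pass. Cpt1a, the rate-limiting carnitine palmitoyltransferase of most tissues, was at 12.86 and 12.88 in PBS and at 12.70 and 12.74 in BLM. Both BLM arrays were lower, but the difference of -0.15 (SE 0.08, 95% interval -0.35 to 0.05, adjusted p 0.25) did not pass. With cyclic loess scaling it was -0.34 and passed (adjusted p 0.0330). Cpt1b, the muscle isoform, was at 6.05 and 5.95 in PBS and at 5.90 and 5.95 in BLM, near the all-gene median, with a difference of -0.07 (95% interval -0.29 to 0.14, adjusted p 0.594).

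Cpt1c, the isoform best known from neurons and the endoplasmic reticulum, whose catalytic activity is low, was at 6.70 and 6.66 in PBS and at 8.08 and 7.94 in BLM. The groups were far apart, and the rise of 1.33 (SE 0.09, 95% interval 1.10 to 1.56, adjusted p 0.000853) was 2.52-fold. Cpt2, which turns acylcarnitine back into acyl-CoA on the inner membrane, was at 8.11 and 8.26 in PBS and at 9.18 and 8.94 in BLM. It rose by 0.88 (SE 0.12, 95% interval 0.58 to 1.17, adjusted p 0.00548), a 1.83-fold change, and here too the groups did not overlap. Slc25a20, the carrier that exchanges acylcarnitine for carnitine between these enzymes, was at 9.25 and 9.38 in PBS and at 9.48 and 9.21 in BLM. Its arrays overlapped and the difference was 0.03 (95% interval -0.28 to 0.33, adjusted p 0.898). Crat, which handles acetyl groups, differed by 0.21 (adjusted p 0.143), and Crot, which handles the medium chains leaving peroxisomes, by 0.03 (adjusted p 0.859).

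The acyl-CoA dehydrogenases, which carry out the opening oxidation of each round, held no called gene. By limma 0 of 10 passed, where 25.3% of all genes did, and 4 had an unadjusted p under 0.05. Acadl, the long-chain enzyme, was at 11.64 and 11.62 in PBS and at 11.66 and 11.56 in BLM, a difference of -0.02 (95% interval -0.23 to 0.19, adjusted p 0.905). Acadm, the medium-chain enzyme, was at 9.65 and 9.74 in PBS and at 9.72 and 9.61 in BLM, a difference of -0.04 (95% interval -0.26 to 0.19, adjusted p 0.816). In both genes the BLM arrays overlapped the PBS arrays. Acadvl, the very-long-chain enzyme of the inner membrane, was at 8.98 and 9.02 in PBS and at 9.15 and 9.11 in BLM, which did not overlap, but the difference of 0.13 (95% interval -0.07 to 0.33, adjusted p 0.306) did not pass. For these 3 enzymes the interval lay within 0.5 log2 units of 0 on either side.

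Acads, the short-chain enzyme, came nearest to the threshold, with a difference of 0.35 (95% interval 0.11 to 0.60, adjusted p 0.0534). The dehydrogenases of branched-chain amino acid breakdown did not pass either, Acad8 at 0.27 (adjusted p 0.067) and Acadsb at 0.22 (adjusted p 0.108). Acad10 was the lowest at -0.27 (adjusted p 0.0946), and Acad12, Acad9 and Acad11 lay between -0.16 and 0.13. Other settings called some of them. With a trended robust prior 2 were higher, Acad8 and Acads, and with dim genes left out before the fit 3 were higher and 1 lower.

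The later steps of the spiral moved in opposite directions at neighbouring enzymes. Of 9 genes, 3 rose (33.3%, against 15.2% of all genes), 1 fell (11.1%, against 10.1%) and 5 did not pass. Hadh, the short-chain hydroxyacyl-CoA dehydrogenase of the matrix, was at 10.56 and 10.67 in PBS and at 10.10 and 10.11 in BLM. It fell by 0.51 without overlap (SE 0.09, adjusted p 0.0113). Hadhb, the thiolase subunit of the trifunctional protein that works on long chains, was at 10.49 and 10.70 in PBS and at 11.13 and 11.07 in BLM. It rose by 0.50 without overlap (SE 0.10, 95% interval 0.24 to 0.76, adjusted p 0.0212). Its partner subunit Hadha, with which it forms 1 complex, was at 9.59 and 9.65 in PBS and at 9.93 and 9.87 in BLM. The BLM arrays were higher, but the difference of 0.28 (SE 0.08, 95% interval 0.07 to 0.49, adjusted p 0.0622) did not pass, and the intervals of the partners overlap.

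Enzymes that prepare unsaturated chains also rose in part. Decr1, the mitochondrial dienoyl-CoA reductase, was at 8.91 and 9.05 in PBS and at 9.44 and 9.60 in BLM, a rise of 0.54 without overlap (SE 0.10, adjusted p 0.0166). Ech1, a dienoyl-CoA isomerase, was at 7.20 and 7.35 in PBS and at 7.80 and 7.63 in BLM, a rise of 0.44 without overlap (SE 0.10, adjusted p 0.0328). The enoyl-CoA isomerases Eci1, Eci2 and Eci3 lay at -0.07, -0.02 and 0.00, and the short-chain hydratase Echs1 at 0.14, none past the threshold. Eci2 and Eci3 are close relatives, so array probes may not separate them fully. Their levels differed, with Eci2 at 10.01 to 10.04 over the arrays and Eci3 at 5.54 to 5.56. Eci3 thus lay below the all-gene median on every array. Of the 4 called genes of these steps, each lost its call without at least 1 array. Hadh did so without BLM replicate 1 (adjusted p 0.0692) and BLM replicate 2 (0.0609). Hadhb did so without PBS replicate 1, BLM replicate 1 or BLM replicate 2 (adjusted p 0.0642, 0.106 and 0.0807), and Decr1 without PBS replicate 1 or BLM replicate 2 (0.0641 and 0.0885). Ech1 missed the threshold whichever of the 4 arrays was left out (adjusted p from 0.0519 to 0.163).

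**Figure D3:**
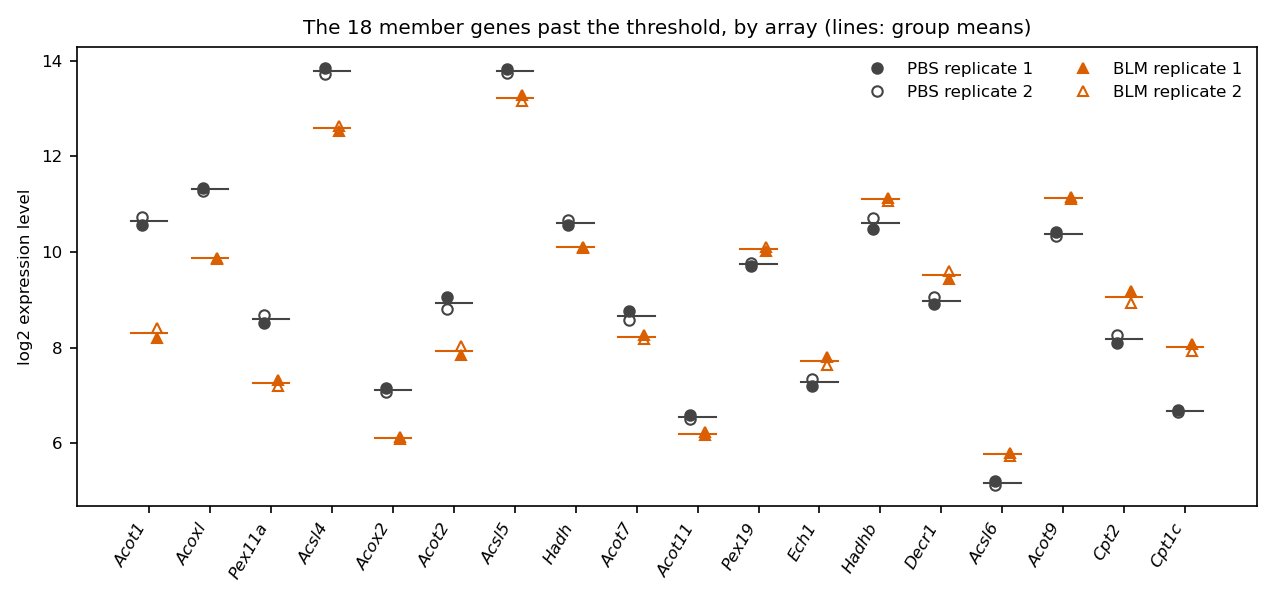
Log2 expression level on each array (vertical axis) for the 18 called genes, with 1 symbol per array and lines at the group means. In every one of these genes the PBS and BLM arrays are separate, with the widest gap at Acot1.

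Thioesterases, which release the free fatty acid and coenzyme A, held the strongest fall. Of 13 genes, 4 fell (30.8%, against 10.1% of all genes), 1 rose (7.69%, against 15.2%) and 8 did not pass. Acot1, the cytosolic long-chain enzyme known as a PPARα target, was at 10.56 and 10.74 in PBS and at 8.21 and 8.42 in BLM. The lowest PBS array lay far above the highest BLM array. Acot1 fell by 2.33 (SE 0.11, 95% interval -2.62 to -2.05, adjusted p 0.000414), which is 5.04-fold. Acot2, its mitochondrial neighbour and near-copy, was at 9.07 and 8.81 in PBS and at 7.85 and 8.04 in BLM. It fell by 0.996 without overlap (SE 0.13, 95% interval -1.31 to -0.68, adjusted p 0.00467). The intervals of Acot1 and Acot2 do not overlap, though shared probe sequence could blend their signals. Beside the fall of Acot1, the alveolar type 2 markers had a median difference of -0.87, and 4 of 11 fell by at least 1 log2 unit. The ciliated markers had a median of -1.95, and 9 of 9 fell by at least that much. The part of these markers in the fall of Acot1 was not tested.

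Acot1 and Acot2 stand in a row on chromosome 12 with Acot4, Acot3, Acot5 and Acot6, in that RefSeq order. The other 4 did not pass, at 0.12 for Acot4, -0.25 for Acot3, -0.02 for Acot5 and -0.04 for Acot6, and each lay below the all-gene median on every array, so a fall there could not be seen well. Next to the row, Riox1 on the Acot2 side was at 0.30 (adjusted p 0.071) and Dnal1, a dynein light chain gene on the Acot6 side, fell by 0.51 (adjusted p 0.0212, but 0.0703, 0.113 and 0.0591 without PBS replicate 2, BLM replicate 1 and BLM replicate 2). Outside the row, Acot7, which is abundant in brain and cleaves long-chain acyl-CoA in the cytosol, was at 8.76 and 8.57 in PBS and at 8.27 and 8.18 in BLM. It fell by 0.44 without overlap (SE 0.10, adjusted p 0.0317). Acot11, a thioesterase tied to brown fat, was at 6.59 and 6.52 in PBS and at 6.18 and 6.23 in BLM, and fell by 0.35 without overlap (SE 0.08, adjusted p 0.0350). Both calls were fragile. Acot7 missed the threshold without PBS replicate 1, BLM replicate 1 or BLM replicate 2 (adjusted p 0.0998, 0.0929 and 0.147), and Acot11 whichever of the 4 arrays was left out (0.0681 to 0.180).

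Acot9, a mitochondrial thioesterase on the X chromosome, went the other way. It was at 10.41 and 10.34 in PBS and at 11.15 and 11.11 in BLM. The arrays did not overlap, and the rise of 0.75 (SE 0.08, 95% interval 0.55 to 0.96, adjusted p 0.00299) was 1.69-fold. As for every gene here, treatment and the sex-linked difference cannot be told apart. Its autosomal relative Acot10 was at 7.98 and 8.32 in PBS and at 7.78 and 7.82 in BLM, a difference of -0.35 (SE 0.13, adjusted p 0.118) that did not pass with all arrays but did without PBS replicate 1 (0.0339). Acot13, a small mitochondrial thioesterase, was at 10.96 and 11.29 in PBS and at 11.43 and 11.40 in BLM, a difference of 0.29 (adjusted p 0.17) that passed without PBS replicate 2 (0.0439). The peroxisomal Acot8 lay at -0.01 and the liver enzyme Acot12 at 0.16.

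**Figure D4:**
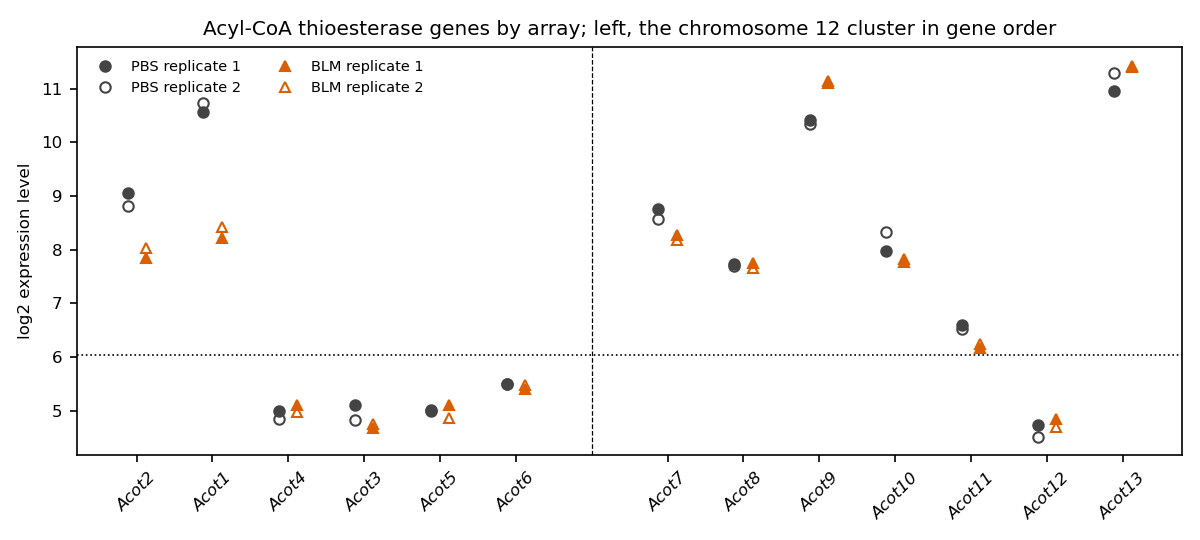
Log2 expression level on each array (vertical axis) for the thioesterase genes, with the 6 genes of the chromosome 12 row at the left in gene order and the other genes at the right. Acot1 and Acot2 separate by group with PBS above BLM, the 4 genes after them lie low without such a gap, and Acot9 has BLM above PBS.

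Of the 4 member genes of peroxisomal chain shortening, 3 of the acyl-CoA oxidase family and 1 reductase, 2 fell and 2 did not pass. Acoxl, an acyl-CoA oxidase-like protein, was at 11.34 and 11.29 in PBS and at 9.88 and 9.85 in BLM. The groups were widely separate, and Acoxl fell by 1.45 (SE 0.08, 95% interval -1.65 to -1.24, adjusted p 0.000510), or 2.73-fold. Acox2, the oxidase of branched chains and bile acid precursors, was at 7.16 and 7.07 in PBS and at 6.09 and 6.14 in BLM. It fell by 0.9985 without overlap (SE 0.08, 95% interval -1.21 to -0.79, adjusted p 0.00148). Acox3, also an oxidase of branched chains, was at 0.22 (adjusted p 0.110), and the peroxisomal reductase Decr2 at -0.14 (adjusted p 0.337).

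Among the 14 peroxins, 1 fell (7.14%, against 10.1% of all genes), 1 rose (7.14%, against 15.2%) and 12 did not pass. Pex11a, which elongates peroxisomes before they divide and is inducible by PPARα ligands, was at 8.52 and 8.69 in PBS and at 7.33 and 7.20 in BLM. The gap was wide, and Pex11a fell by 1.33 (SE 0.10, 95% interval -1.59 to -1.08, adjusted p 0.00114), or 2.52-fold. Its relative Pex11g was at 0.25 (adjusted p 0.183). Pex19, the cytosolic chaperone of peroxisomal membrane proteins, was at 9.71 and 9.77 in PBS and at 10.02 and 10.10 in BLM, a rise of 0.32 without overlap (SE 0.08, adjusted p 0.0462). That call ended whichever of the 4 arrays was left out (adjusted p from 0.0854 to 0.214), with median centring (0.0673) and with cyclic loess scaling (0.150). Pex3, the membrane anchor of Pex19, was at 9.39 and 9.39 in PBS and at 9.15 and 9.11 in BLM, a difference of -0.26 (adjusted p 0.0689).

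Import machinery differed little. Pex5, the receptor for most matrix enzymes, was at 6.16 and 6.15 in PBS and at 6.49 and 6.37 in BLM, a difference of 0.27 (95% interval 0.06 to 0.49, adjusted p 0.0759). Pex7, the receptor for the other targeting signal, was at -0.21 (adjusted p 0.148). The docking factors Pex14 and Pex13 lay at -0.01 and -0.09, the ring-finger ligases Pex2 and Pex10 at -0.07 and -0.27 (adjusted p 0.0616 for Pex10), and the export ATPase Pex6 with its anchor Pex26 at -0.24 and -0.07. Pex16, a membrane biogenesis factor, was at -0.18, and Pex5l, a relative of Pex5 known from brain, at -0.02. With cyclic loess scaling Pex3, Pex6 and Pex10 passed as lower (adjusted p 0.0234, 0.0423 and 0.0428).

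**Figure D5:**
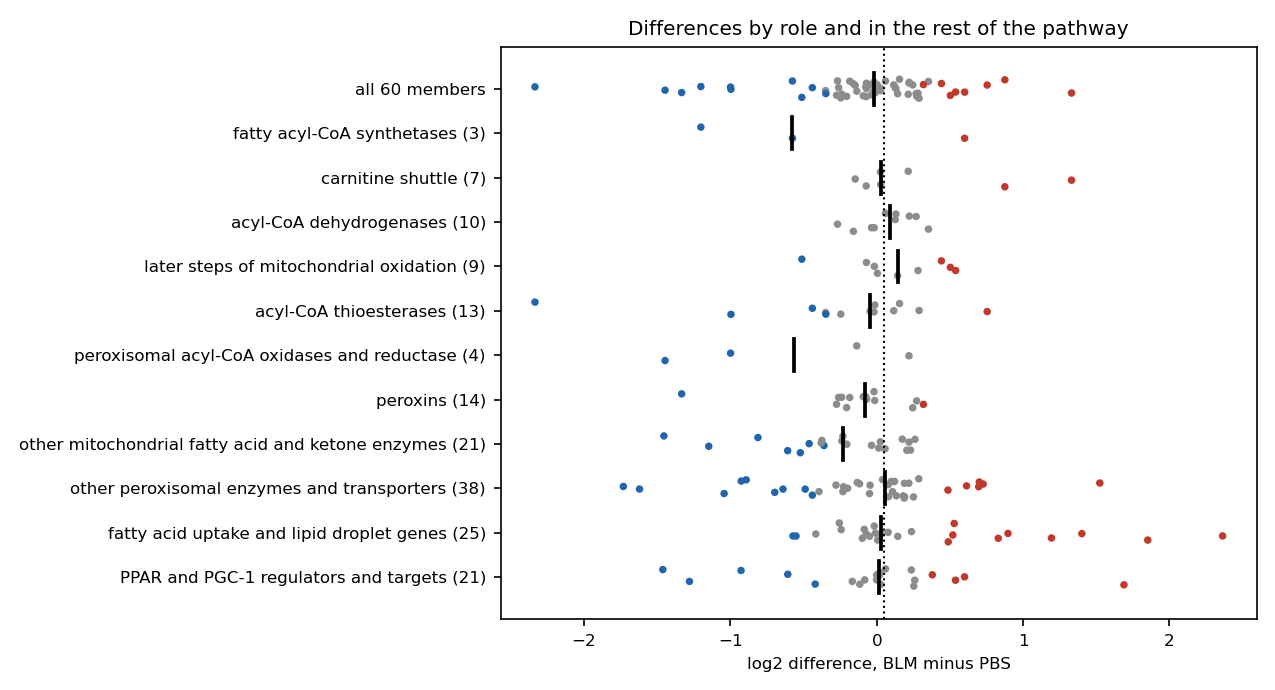
Log2 difference between BLM and PBS (horizontal axis) for every gene of each role and of 4 lists from the rest of the pathway, with the number of genes in brackets and the median marked. The dehydrogenases gather near 0 with a median of 0.09, while the oxidases with reductase have a median of -0.57 and the other mitochondrial enzymes of -0.23.

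The rest of the pathway was read from 4 further lists. Of 21 other mitochondrial enzymes of fatty acid and ketone metabolism, 7 fell (33.3%, against 10.1% of all genes) and by limma 0 rose (1 was higher at an unadjusted p under 0.05, and 1 passed as higher with dim genes left out). Their median difference was -0.23, where the all-gene median was 0.05. The strongest falls were in Acss1, the mitochondrial acetyl-CoA synthetase (-1.45, SE 0.10), and Ivd, the dehydrogenase of leucine breakdown (-1.15), neither of which acts on long chains. The number that fell was 4 without BLM replicate 2. Of 38 other peroxisomal enzymes and transporters, 9 fell (23.7%, against 10.1% of all genes) and 6 rose (15.8%, against 15.2%), with a median of 0.06. Pmvk, of isoprenoid synthesis, fell by 1.73.

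The ABC transporters that carry acyl-CoA into peroxisomes moved apart. Abcd3, which takes branched chains and bile acid precursors, was at 11.58 and 11.55 in PBS and at 10.00 and 9.90 in BLM, and fell by 1.62 (adjusted p 0.000462). Abcd2, which takes very long and polyunsaturated chains, was at 6.47 and 6.55 in PBS and at 8.004 and 8.06 in BLM, a rise of 1.52 (adjusted p 0.000510). In neither gene did the arrays overlap. Phyh, the enzyme that opens phytanic acid breakdown, rose by 0.73. Cat, catalase, which destroys the hydrogen peroxide that the oxidases make, was at 15.73 and 15.66 in PBS and at 14.73 and 14.82 in BLM, and fell by 0.93 without overlap (SE 0.09, adjusted p 0.00190). The enzymes that follow the oxidases did not pass, with the bifunctional enzymes Ehhadh at -0.39 (adjusted p 0.165) and Hsd17b4 at -0.28 (adjusted p 0.0700). Ehhadh lay below the all-gene median on every array. With cyclic loess scaling Hsd17b4 was at -0.40 and passed as lower (adjusted p 0.0177). The thiolases Acaa1a, Acaa1b and Scp2 lay at -0.13, 0.08 and 0.19.

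Supply and control of oxidation moved in both directions. Of 25 genes of fatty acid uptake and lipid droplets, 9 rose (36%, where 15.2% of all genes rose) and 2 fell (8.0%, where 10.1% of all genes fell), led by the transporter Slc27a6 (2.36, adjusted p 0.000357) and the lipoprotein lipase Lpl (1.85). Plin4, a droplet coat protein, and Pnpla2, the triglyceride lipase, fell by 0.57 and 0.55. Plin4 missed the threshold when either PBS array or BLM replicate 1 was left out (adjusted p 0.0516 to 0.0842), and Pnpla2 without BLM replicate 1 or BLM replicate 2 (0.0762 and 0.0566). The number that fell was 0 without BLM replicate 1, 1 without PBS replicate 1 or BLM replicate 2, and 4 with dim genes left out. Cd36, the fatty acid translocase, was at 15.64 and 15.69 in PBS and at 15.65 and 15.49 in BLM, which overlap (difference -0.10, adjusted p 0.503). Beside these values, markers of alveolar fibroblasts and lipofibroblasts rose in 6 of 8 cases (75.0%, against 15.2% of all genes). The other 2 fell (25.0%, against 10.1%), the median difference was 1.15, and Plin2 is in both lists. The part of these markers in the result was not tested.

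Of 21 regulators and targets of PPARs and their coactivator, 4 rose (19.0%, against 15.2% of all genes) and 5 fell (23.8%, against 10.1%), with a median of 0.02. Pdk4, the kinase that turns off pyruvate oxidation, was at 9.75 and 9.88 in PBS and at 8.27 and 8.44 in BLM, and fell by 1.46 without overlap (SE 0.10, adjusted p 0.000920). Prkaa2, a catalytic subunit of AMPK, fell by 1.28, while the other catalytic subunit, Prkaa1, rose by 0.54. The highest rises were those of Angptl4, a secreted inhibitor of lipoprotein lipase (1.69), and Acacb, the acetyl-CoA carboxylase whose product inhibits Cpt1 enzymes (0.60). Prkaa1 missed the threshold when either PBS array or BLM replicate 1 was left out (adjusted p 0.0624 to 0.103), and Acacb without BLM replicate 1 (0.0630). Without single arrays the number that rose was 1 to 3 and the number that fell 3 to 5, the lowest of both without BLM replicate 1.

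Among the regulators themselves, Ppara was at 6.05 and 6.18 in PBS and at 5.69 and 5.70 in BLM, and fell by 0.42 without overlap (SE 0.09, adjusted p 0.0225). With PBS replicate 2, BLM replicate 1 or BLM replicate 2 left out, Ppara missed the threshold (adjusted p 0.0760, 0.114 and 0.102). Ppargc1a, the coactivator that drives mitochondrial genes, was at 8.53 and 8.76 in PBS and at 7.98 and 8.09 in BLM, and fell by 0.61 without overlap (SE 0.11, adjusted p 0.0147), and it missed the threshold without BLM replicate 1 (0.0800). Pparg lay at -0.00 (adjusted p 0.995). Beside these values stand the macrophage markers, of which 9 of 12 were higher in BLM (75.0%, against 15.2% of all genes). In 1 the level was lower (8.33%, against 10.1%). Only 1 of the 12, the alveolar macrophage marker Siglecf, lay below the all-gene median on every array. Adipocyte markers had mean levels of 5.24 and 5.34 in PBS and 5.41 and 5.37 in BLM. Cardiac muscle markers had mean levels of 6.52 and 6.54 in PBS and 6.20 and 6.25 in BLM. Of those 9 cardiac markers, 4 were lower (44.4%, against 10.1% of all genes). The part of these markers in the results was not tested.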

How the data were processed

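Total RNA of CD45-negative lung cells was measured on 4 Affymetrix arrays, 2 per group. Per the submitters' processing notes, the authors used RMA, run in Affymetrix Expression Console, and the deposited values are log2 expression levels of transcript clusters. Versions of both were not given. The highest value of an array was 19.56 to 19.91, so a scaling step after RMA is possible. Differences and folds were taken from the values as deposited. No detection calls were used, so dim genes, whose differences are compressed, were kept. Of 65956 clusters, 30604 had 1 symbol in the platform annotation, and the cluster with the highest mean was kept per gene, which left 30142 genes. A limma fit (version 3.58.1, R 4.3.3; lmFit, then eBayes, two-sided, 2 residual and 3.33 prior degrees of freedom) compared BLM with PBS, with Benjamini-Hochberg adjustment over all genes. Differences are BLM minus PBS in log2 units, with a median SE of 0.0969, and the number of arrays limits the precision.

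The members and lists were chosen with earlier results of these data known. Members past the threshold with a difference of at least 0.5, and a fixed panel of enzymes, are given by array. Of each pathway list the 2 highest and 2 lowest called genes and 7 fixed genes are named. Riox1, Dnal1, Prkaa1, Hsd17b4, Acaa1a, Acaa1b, Scp2 and Plin2 were named after their values were seen. Deviations of arrays with the same replicate number correlated at 0.014, so the numbers were not taken as pairs. RefSeq tables of build GRCm38.p6 gave gene order for 60 members and promoters for 51, and motifs were searched on both strands. Alternatives were a replicate block, 1 array left out, dim genes left out, clusters of a gene averaged, a robust prior with trend, arrays centred on their medians, cyclic loess, and X and Y genes left out.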

Additional observations from a re-analysis of the deposited data

How the results depend on the processing

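With 2 arrays a group, the smallest difference called was 0.291 log2 units. Leaving out 1 array gave 4 to 7 members higher and 6 to 9 lower, and over all genes 2333 to 3521 higher, 1670 to 2435 lower and 4003 to 5956 in all. By role, it gave 1 to 2 synthetases lower, 0 to 2 later-step enzymes higher and 0 to 1 lower, 1 to 2 thioesterases higher and 2 to 3 lower, and 0 to 0 peroxins higher. In the pathway lists it gave 4 to 6 other mitochondrial enzymes lower, 0 to 2 uptake genes lower, and 1 to 3 PPAR regulators and targets higher and 3 to 5 lower.

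The replicate number as a block gave 6 members higher and 9 lower, 4057 and 2685 over all genes and 0 peroxins higher. The calls of Acot11, Ech1 and Pex19 ended under it (adjusted p 0.0660, 0.0602 and 0.0709). The filter on dim genes kept 15071 genes, 51 of them members. It gave 13 members higher and 14 lower (4743 and 3307 over all genes). By role it gave 0 synthetases higher, 3 dehydrogenases higher and 1 lower, 1 oxidase higher, and 2 peroxins higher and 4 lower. In the pathway lists it gave 1 other mitochondrial enzyme higher and 4 uptake genes lower. The trended robust prior gave 2 dehydrogenases higher and 2 peroxins lower. Median centring gave 0 peroxins higher. Cyclic loess gave 1 carnitine gene lower, and 0 peroxins higher and 4 lower. Without X and Y genes, Acsl4 and Acot9 were not tested, which left 1 synthetase lower and 0 thioesterases higher.

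Signs turned in members that did not pass. With cyclic loess Acad9 was at -0.0066, Crot at -0.052, Slc25a20 at -0.077 and Eci3 at -0.0256, and with median centring Eci3 was at -0.0169. Without 1 array Acadm ranged from -0.0918 to 0.0199, Acadl from -0.0639 to 0.0289, Acot5 from -0.14 to 0.10, Acot8 from -0.0615 to 0.0358, Crot from -0.0196 to 0.0713, Slc25a20 from -0.11 to 0.16, Eci3 from -0.0047 to 0.0138, Pex2 from -0.172 to 0.0323 and Pex5l from -0.0687 to 0.0316. Of the 18 called members, 10 kept call and direction in every fit that held them. Why calls changed with the scaling or the filter was not tested.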

Other observations

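Acsl5 was read on a further row of the array, which the highest-mean rule left out. That row was at 6.93 and 7.57 in PBS and at 6.19 and 6.96 in BLM, a difference of -0.68 in the direction of the row used, but with arrays that overlap. A row that names both Utp14b and Acsl3, a synthetase of lipid droplets, was at 8.45 and 8.52 in PBS and at 7.94 and 8.02 in BLM, a difference of -0.51 that cannot be assigned to either gene.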
